A study of Mus musculus with 18 samples.

Results

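The transcripts of 9 feedback inhibitors of the ERK pathway were followed across sorted mouse thyroid cells, with symbols in capitals as in the expression table: the ERK phosphatases DUSP4, DUSP5 and DUSP6, the Sprouty genes SPRY1, SPRY2 and SPRY4, and the Spred genes SPRED1, SPRED2 and SPRED3. They were chosen by symbol, as members of these 3 families, from its 23652 entries. The 18 libraries came from YFP-sorted thyrocytes, YFP being a yellow fluorescent protein, of untreated mice at 20 weeks. All 15 tumour libraries carried BrafV600E, an activating mutation of the kinase Braf. It was combined with K5-Tert, a Tert transgene under the keratin 5 promoter, in 4 of them (K5-Tert tumours). In another 7 the partner was Tert-123C>T, a base change in the Tert promoter (Tert-123 tumours), and in 4 BrafV600E stood alone (Braf tumours). The labels do not say in which thyroid cells the keratin 5 promoter was active. The other 3 libraries, 1 each, pooled samples without the Braf mutation: a K5-Tert pool, a Tert-123C>T pool and a wild-type pool. The labels name thyroid tumour as the source of the pools too. They give neither the number of mice in a pool, the sex of the mice nor the driver of the Braf allele. They also do not say that the tumours of a group came from separate mice, so p-values measure the spread between these samples. The series addresses telomerase in the progression of Braf-driven thyroid cancer.

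Receptor tyrosine kinases switch on Ras, which acts through Raf, MEK and ERK, and active ERK turns on genes whose products shut the pathway down again. DUSP4, DUSP5 and DUSP6 take the activating phosphates off ERK, DUSP4 and DUSP5 in the nucleus and DUSP6 in the cytoplasm. Sprouty proteins block signalling between receptors and Raf, and Spred proteins bring neurofibromin, the Ras GTPase-activating protein encoded by NF1, to the membrane. BrafV600E signals without Ras, downstream of several of these brakes, and in human thyroid cancer the transcripts of Dusp and Sprouty genes are used as a readout of MEK and ERK activity.

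TERT is the telomerase gene. Of the Tert alleles, Tert-123C>T changes its promoter and K5-Tert adds a transgene. TERT stood at 11.2 to 73.9 TPM in K5-Tert tumours, 2.65 to 6.23 TPM in Tert-123 tumours and 3.78 to 5.12 TPM in Braf tumours. It was at 125 TPM in the K5-Tert pool, 8.79 TPM in the Tert-123C>T pool and 2.15 TPM in the wild-type pool. Whether its values in K5-Tert libraries include reads of the transgene was not tested. The values were treated as TPM, which is transcript abundance per length, scaled to a fixed total per library. Levels of different genes can be compared only if that holds, and the read depth is unknown. The 15 thyrocyte markers summed to 458 to 1402 TPM in tumours, with 10 to 14 of them at 1 TPM or more, against 27037 to 33612 TPM in pools, with 14 of 15. Among them the thyroid factors PAX8, NKX2-1, FOXE1 and HHEX stayed above 10 TPM in every tumour, while DIO1, DUOX2 and SLC26A4 were listed at 0 in 1 tumour each and DUOXA2 in 4. The 8 macrophage markers, none of them at 0 in any library, summed to 214 to 5176 TPM in tumours and 53.2 to 235 TPM in pools. The Tert-123C>T pool held the highest sums among the pools of the 7 T cell markers (181 TPM), the 6 endothelial markers (959 TPM) and the 4 C cell markers (2062 TPM). K5-Tert tumours 2 and 4 stood apart in their TMM-type scaling factors, 0.57 and 0.56, against 0.86 to 1.29 in the other 13 tumours. The nuclear RNA MALAT1 was at 1191 and 1050 TPM in them and at 1908 TPM in K5-Tert tumour 3. It was at 5072 to 8420 TPM in the remaining tumours. In such bulk samples, fewer cells of a type and less RNA per cell cannot be told apart.

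The sequence just before the transcription start is shown for 5 of the genes because they moved differently with the Braf mutation: DUSP6, SPRY2 and SPRED1 were higher in tumours, while DUSP5 and SPRY1 were not. DUSP4 and SPRY4, also higher in tumours, had no window used and enter none of the motif statements. For the other 7 of the 9 genes, windows of 250 bases were taken from RefSeq promoter tables (GRCm38.p6). They are written 5′ to 3′ along the gene's strand, in lower case with motif matches in capitals, and end at the base before the start.
DUSP6: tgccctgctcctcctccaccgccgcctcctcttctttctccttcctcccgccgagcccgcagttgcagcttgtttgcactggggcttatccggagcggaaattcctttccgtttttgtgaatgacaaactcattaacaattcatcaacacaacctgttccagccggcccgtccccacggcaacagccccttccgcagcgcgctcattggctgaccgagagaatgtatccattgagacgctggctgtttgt
SPRY2: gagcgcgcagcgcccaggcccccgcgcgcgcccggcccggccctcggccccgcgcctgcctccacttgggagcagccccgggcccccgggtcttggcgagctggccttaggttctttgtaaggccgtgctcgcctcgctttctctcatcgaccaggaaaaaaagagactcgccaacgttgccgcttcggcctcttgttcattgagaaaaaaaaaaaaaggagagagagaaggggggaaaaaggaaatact
SPRED1: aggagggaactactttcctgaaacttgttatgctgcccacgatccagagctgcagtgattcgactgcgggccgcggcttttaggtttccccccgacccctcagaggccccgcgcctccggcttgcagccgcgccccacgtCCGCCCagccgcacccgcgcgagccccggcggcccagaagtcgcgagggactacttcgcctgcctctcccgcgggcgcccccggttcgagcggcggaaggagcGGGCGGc
DUSP5: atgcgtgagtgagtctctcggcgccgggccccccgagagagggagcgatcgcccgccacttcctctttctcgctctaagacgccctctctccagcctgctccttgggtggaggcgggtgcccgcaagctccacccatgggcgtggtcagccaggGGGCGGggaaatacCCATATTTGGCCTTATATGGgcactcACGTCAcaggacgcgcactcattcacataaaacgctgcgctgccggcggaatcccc
SPRY1: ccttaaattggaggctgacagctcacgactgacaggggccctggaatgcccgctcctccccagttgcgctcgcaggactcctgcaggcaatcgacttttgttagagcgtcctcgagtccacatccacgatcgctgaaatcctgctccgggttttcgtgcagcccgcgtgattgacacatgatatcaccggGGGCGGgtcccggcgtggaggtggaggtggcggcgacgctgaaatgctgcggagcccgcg
The DUSP6 window is chr10:99262981-99263230 on the plus strand, that of SPRY2 chr14:105896820-105897069 on the minus strand, that of SPRED1 chr2:117120821-117121070 on the plus strand, that of DUSP5 chr19:53528895-53529144 on the plus strand and that of SPRY1 chr3:37639697-37639946 on the plus strand. Both strands were searched for an ETS site written CCGGAA, stricter than the GGAA core, and for the AP-1 site TGANTCA. The other motifs were the short site TGACGT of the cyclic AMP response element, the Sp1 box GGGCGG and the CArG box, to which serum response factor binds. The CArG box was added after the DUSP5 sequence had been read, so its presence there is a description. DUSP5 held 2 CArG boxes side by side, 82 to 73 and 72 to 63 bases before the start, and 1.467% of the 32851 windows of this length in the table held at least 1. DUSP5 also held 1 Sp1 box and 1 short cyclic AMP response site, a motif present in 6.469% of all windows. SPRED1 held 2 Sp1 boxes and SPRY1 held 1, a motif found in 32.742% of windows. None of the 5 motifs was found in the windows of DUSP6 and SPRY2. The ETS site CCGGAA and the AP-1 site were in none of the 7 windows, against 12.03% and 6.749% of all windows. With so few windows nothing is read from this, and GGAA alone, which several of the windows hold, was not searched.

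In the tumours, the ERK phosphatases and SPRED1 were the most abundant of the 9 genes and SPRED3 the least. DUSP6, the cytoplasmic ERK phosphatase, averaged 86.3 ± 24.5 TPM, followed by DUSP5 with 69.3 ± 39.7 TPM, SPRED1 with 56.7 ± 17.0 TPM and DUSP4 with 50.6 ± 14.9 TPM (SD, n = 15). SPRED2 averaged 30.8 ± 10.7 TPM, SPRY1 24.1 ± 9.85 TPM, SPRY2 17.4 ± 6.02 TPM, SPRY4 8.44 ± 4.42 TPM and SPRED3 2.72 ± 1.04 TPM (SD, n = 15). Not every step in this order held beyond the spread. DUSP5 exceeded SPRED1 in 7 of 15 tumours and SPRED1 exceeded DUSP4 in 9 of 15, so these 3 could not be ranked. DUSP6 exceeded DUSP5 in 11 of 15 tumours, SPRED2 exceeded SPRY1 in 11 and SPRY1 exceeded SPRY2 in 12. DUSP4 exceeded SPRED2 in 14 of 15 tumours, and the lowest steps, SPRY2 over SPRY4 and SPRY4 over SPRED3, held in all 15. SPRED3, known in mice mainly from brain, stayed under 10 TPM in every library.

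**Figure D1:**
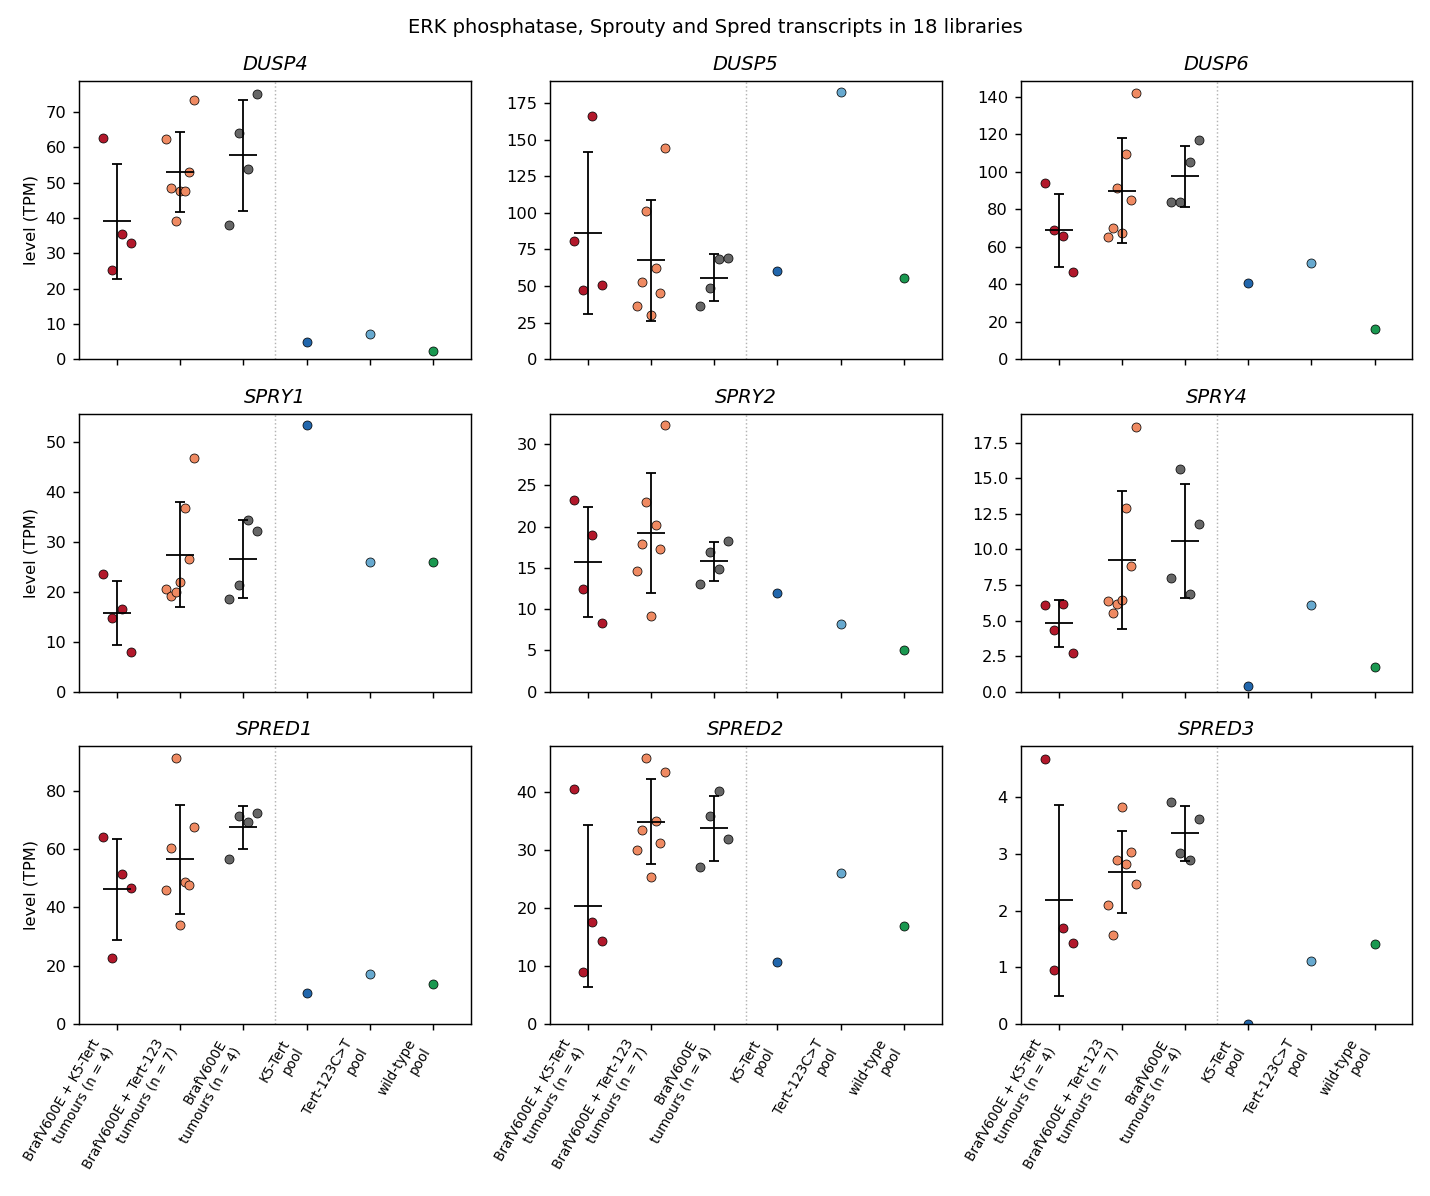
Level in TPM of each of the 9 genes in every library, with the tumour groups left of the dotted line (horizontal bar, mean; error bar, SD) and the 3 single pools right of it, each panel with its own axis from 0. DUSP4 and SPRED1 lie above all 3 pools in every tumour, while DUSP5 and SPRY1 do not.

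Libraries with the Braf mutation stood apart from those without it in part of the group and not in the rest. All 15 with the mutation were tumours with no pooling stated, and all 3 without it were pools. The fit therefore cannot tell the mutation from pooling or from the difference in marker sums given above. With BrafV600E, 5 genes were higher than in libraries without it: DUSP4, DUSP6, SPRY2, SPRY4 and SPRED1. None of the 8 tested was called lower, and DUSP5, SPRY1 and SPRED2 did not pass the test. A single fit on log2(TPM + 1) held the mutation and the Tert allele as terms, for the 7825 genes that reached 10 TPM in at least 4 libraries. Of these genes, 15.4% were called higher and 10% lower (limma, adjusted p under 0.05 over all genes), in numbers 1205 and 786, against 1326 and 1432 with quantile normalization and 1281 and 1964 with the trend of transcript length removed. The 8 genes tested had a median log2 fold change of 1.12, against 0.069 over all genes tested. SPRED3 fell under the filter. DUSP4 and SPRY4 reached 10 TPM in tumours alone, so they had to differ to be tested, and nothing is read from the count; without the filter all 5 still passed (adjusted p from 2.68e-07 for DUSP4 to 0.0497 for SPRY2, limma), as did SPRED3 (1.04, adjusted p = 0.0228).

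DUSP4, the nuclear phosphatase, differed most. It stood at 62.7, 25.3, 35.5 and 32.9 TPM in the K5-Tert tumours, at 39.2 to 73.5 TPM with a median of 48.6 in the Tert-123 tumours and at 38.1, 64.1, 53.9 and 75.2 TPM in the Braf tumours, against 4.87, 7.04 and 2.24 TPM in the K5-Tert pool, the Tert-123C>T pool and the wild-type pool. Every tumour lay above every pool. The log2 fold change was 3.17 (SE 0.285, adjusted p = 2.53e-08, limma with Benjamini-Hochberg), a 9.01-fold difference on the TPM + 1 scale. Among all genes tested, 5.71% lay above every pool in every tumour.

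DUSP6 was already present in the pools and higher in tumours. Its level was 93.9, 68.7, 65.9 and 46.5 TPM in the K5-Tert tumours, 65.0 to 142 TPM with a median of 84.6 in the Tert-123 tumours and 84.0, 84.0, 105 and 117 TPM in the Braf tumours, against 40.6, 51.1 and 15.9 TPM in the K5-Tert pool, the Tert-123C>T pool and the wild-type pool. All but 1 of the 15 tumours, K5-Tert tumour 4, lay above every pool. The log2 fold change was 1.31 (SE 0.298, adjusted p = 0.00213, limma with Benjamini-Hochberg).

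DUSP5, the ERK phosphatase confined to the nucleus, whose window above holds the paired CArG boxes, did not follow them. It stood at 80.9, 47.4, 166 and 50.9 TPM in the K5-Tert tumours, at 30.4 to 144 TPM with a median of 52.6 in the Tert-123 tumours and at 36.0, 48.8, 68.6 and 69.2 TPM in the Braf tumours, against 60.2, 182 and 55.5 TPM in the K5-Tert pool, the Tert-123C>T pool and the wild-type pool. The highest value of all 18 libraries was that of the Tert-123C>T pool. The log2 fold change was -0.48 with a 95% interval of -1.35 to 0.39 (adjusted p = 0.444, limma with Benjamini-Hochberg), and it turned to 0.14 without that pool.

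Among the Sprouty genes, SPRY4 and SPRY2 were higher with the Braf mutation and SPRY1 was not. SPRY4, an inhibitor of Ras activation by growth factor receptors, stood at 6.11, 4.32, 6.13 and 2.69 TPM in the K5-Tert tumours, at 5.56 to 18.6 TPM with a median of 6.44 in the Tert-123 tumours and at 8.01, 15.7, 6.86 and 11.8 TPM in the Braf tumours. The pools had 0.42 TPM (K5-Tert), 6.09 TPM (Tert-123C>T) and 1.75 TPM (wild type). Of the 15 tumours, 12 lay above every pool, and the Tert-123C>T pool lay within the range of the tumours. The log2 fold change was 1.44 (SE 0.392, adjusted p = 0.0086, limma with Benjamini-Hochberg); with quantile normalization it was 0.24 (adjusted p = 0.625).

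SPRY2 stood at 23.3, 12.5, 19.0 and 8.29 TPM in the K5-Tert tumours, at 9.17 to 32.3 TPM with a median of 17.9 in the Tert-123 tumours and at 13.0, 17.0, 14.9 and 18.3 TPM in the Braf tumours, against 11.9, 8.25 and 5.07 TPM in the K5-Tert pool, the Tert-123C>T pool and the wild-type pool. It lay above every pool in 13 of 15 tumours, with a log2 fold change of 0.93 (SE 0.306, adjusted p = 0.0278, limma with Benjamini-Hochberg). SPRY1, the most abundant Sprouty transcript in each of the 3 pools, had 23.5, 14.7, 16.6 and 7.88 TPM in the K5-Tert tumours, 19.1 to 46.8 TPM with a median of 22 in the Tert-123 tumours and 18.5, 21.3, 34.4 and 32.1 TPM in the Braf tumours, against 53.4, 25.9 and 25.9 TPM in the K5-Tert pool, the Tert-123C>T pool and the wild-type pool. None of the tumours exceeded the K5-Tert pool, and 10 of 15 lay below every pool. Its log2 fold change was -0.58 with a 95% interval of -1.29 to 0.12 (adjusted p = 0.223, limma with Benjamini-Hochberg), and it was called lower when the trend with transcript length was removed (-0.65, adjusted p = 0.0444).

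Of the Spred genes, SPRED1 was higher in every tumour. Its level was 64.1, 22.7, 51.3 and 46.8 TPM in the K5-Tert tumours, 33.9 to 91.2 TPM with a median of 48.7 in the Tert-123 tumours and 56.7, 71.4, 69.1 and 72.5 TPM in the Braf tumours, against 10.7, 17.3 and 13.8 TPM in the K5-Tert pool, the Tert-123C>T pool and the wild-type pool. SPRED1, whose loss causes Legius syndrome in humans, had a log2 fold change of 1.90 (SE 0.274, adjusted p = 1.79e-05, limma with Benjamini-Hochberg), and all 15 tumours lay above every pool.

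SPRED2 had 40.6, 9.03, 17.6 and 14.3 TPM in the K5-Tert tumours, 25.4 to 46.0 TPM with a median of 33.4 in the Tert-123 tumours and 27.1, 36.0, 40.2 and 32.0 TPM in the Braf tumours, against 10.7, 26.1 and 16.9 TPM in the K5-Tert pool, the Tert-123C>T pool and the wild-type pool. K5-Tert tumours 2, 3 and 4 were within or below the range of the pools, and 11 of 15 tumours were above it. The log2 fold change of SPRED2 was 0.66 (SE 0.287, adjusted p = 0.102, limma with Benjamini-Hochberg), and it passed under each of the 4 other scalings, with 0.61 to 0.70. SPRED3 had 4.66, 0.95, 1.69 and 1.42 TPM in the K5-Tert tumours, 1.58 to 3.83 TPM in the Tert-123 tumours and 3.90, 3.02, 2.89 and 3.61 TPM in the Braf tumours, while it was listed at 0 in the K5-Tert pool and at 1.12 and 1.40 TPM in the Tert-123C>T and wild-type pools.

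**Figure D2:**
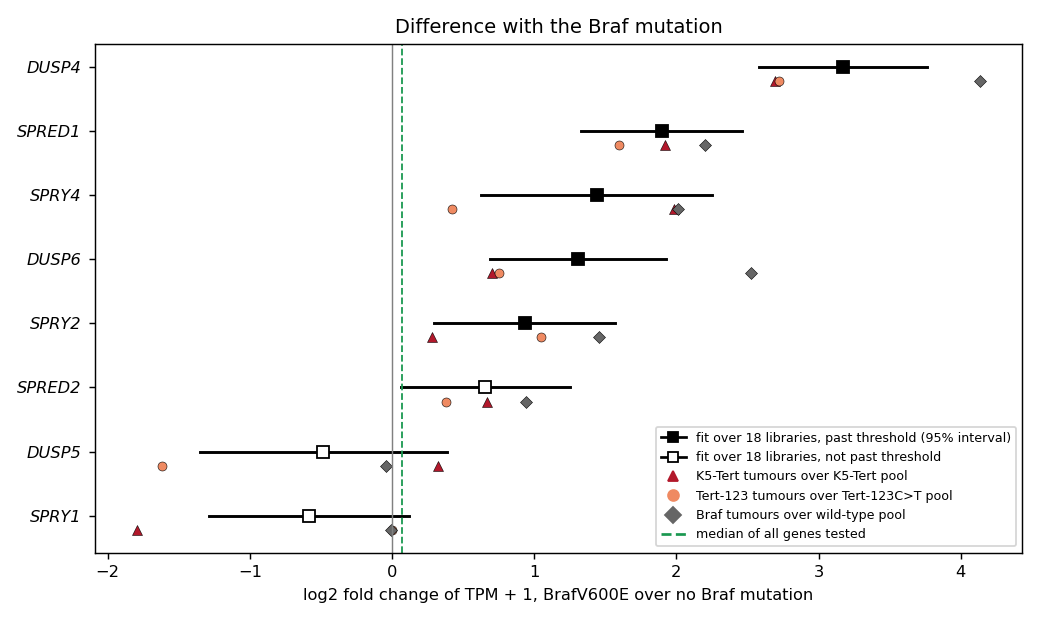
Log2 fold change of TPM + 1 with the Braf mutation for the 8 genes tested, from the fit over 18 libraries (squares with 95% intervals, filled where the adjusted p is under 0.05) and for each Tert allele against its own single pool (coloured markers). DUSP4 and SPRED1 lie far right of the median of all genes tested (dashed), while DUSP5 and SPRY1 lie left of 0 in the fit over 18 libraries.

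How much the Braf difference rests on single pools varied by gene, since each Tert allele had only 1 pool. Against the pool of the same allele, the log2 difference of DUSP4 was 2.69 in K5-Tert tumours, 2.73 in Tert-123 tumours and 4.14 in Braf tumours, and that of SPRED1 was 1.92 in K5-Tert tumours, 1.59 in Tert-123 tumours and 2.20 in Braf tumours. DUSP6 differed by 0.70 in K5-Tert tumours, by 0.75 in Tert-123 tumours and by 2.53 in Braf tumours, set against the low wild-type pool. SPRY4 differed by 1.99 in K5-Tert tumours, 0.42 in Tert-123 tumours and 2.01 in Braf tumours, and SPRY2 by 0.28 in K5-Tert tumours, 1.05 in Tert-123 tumours and 1.46 in Braf tumours. SPRY1 differed by -1.80 in K5-Tert tumours, whose pool held the most SPRY1, by 0.0018 in Tert-123 tumours and by -0.01 in Braf tumours. A fit of the 6 genotype groups set the Braf difference beside each Tert allele against that without a Tert change. Over the 8 genes it changed by -1.83 (DUSP6) to 0.37 (DUSP5) with K5-Tert. With Tert-123C>T it changed by -1.78 (DUSP6) to 0.012 (SPRY1). Each allele had only 1 pool, so no gene is called from these values, and K5-Tert was not set against Tert-123C>T. In that fit the spread comes from the tumours alone, and each pool is assumed to vary like them.

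Without the wild-type pool, DUSP4 and SPRED1 alone remained called, with DUSP6 at 0.73 (adjusted p = 0.093), SPRY2 at 0.68 (adjusted p = 0.213) and SPRY4 at 1.17 (adjusted p = 0.0867) in the limma fit. Without the K5-Tert pool SPRY4 was not called (1.18, adjusted p = 0.0506), and without the Tert-123C>T pool SPRY2 was not (0.87, adjusted p = 0.112). DUSP4 and SPRED1 passed in all 31 alternative fits. Besides the thyrocyte and macrophage sums given above, the 6 fibroblast markers summed to 89.0 to 2379 TPM in tumours and 33.4 to 327 TPM in pools, the 6 pericyte and smooth muscle markers to 19.4 to 195 TPM in tumours and 30.3 to 46.8 TPM in pools, the 6 endothelial markers to 12 to 117 TPM in tumours and 100.1 to 959 TPM in pools, and the 4 C cell markers to 1.34 to 32.9 TPM in tumours and 241 to 2062 TPM in pools. With the Braf mutation, 3 of 5 tested fibroblast markers and 6 of 7 macrophage markers were higher (limma, adjusted p under 0.05). Of 6 pericyte and smooth muscle markers, CSPG4, ACTA2 and PDGFRB were higher, each under 4 of 5 scalings, and MYH11 was lower (-2.35) under all 5. Every pool lay under 10 TPM for CSPG4, ACTA2, PDGFRB and the macrophage marker MRC1. These markers reached the filter through tumours alone, so nothing is read from their being called higher. All 5 tested endothelial markers and 2 of 2 C cell markers were lower. Of 9 thyrocyte markers, 6 were lower and 1 higher. Their part in these differences was not tested.

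The make-up of each family differed between tumours and pools. Of the summed TPM of the 3 ERK phosphatase genes, DUSP4 held 13.3% to 38.2% in tumours and 2.93% to 4.61% in pools, and DUSP5 held 20.9% to 62.1% in tumours and 57.0% to 75.8% in pools. Of the Sprouty sum, SPRY1 held 39.5% to 61.3% in tumours and 64.4% to 81.2% in pools. Of the Spred sum, SPRED1 held 53.7% to 74.8% in tumours and 38.8% to 50.01% in pools. The ranges of DUSP4, SPRY1 and SPRED1 did not overlap between tumours and pools, and those of DUSP5 did, through K5-Tert tumour 3. One scaling factor per library leaves these shares as they are. They were not recomputed with quantile normalization or with the length trend removed, and since they come from the same values they are given with no test.

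**Figure D3:**
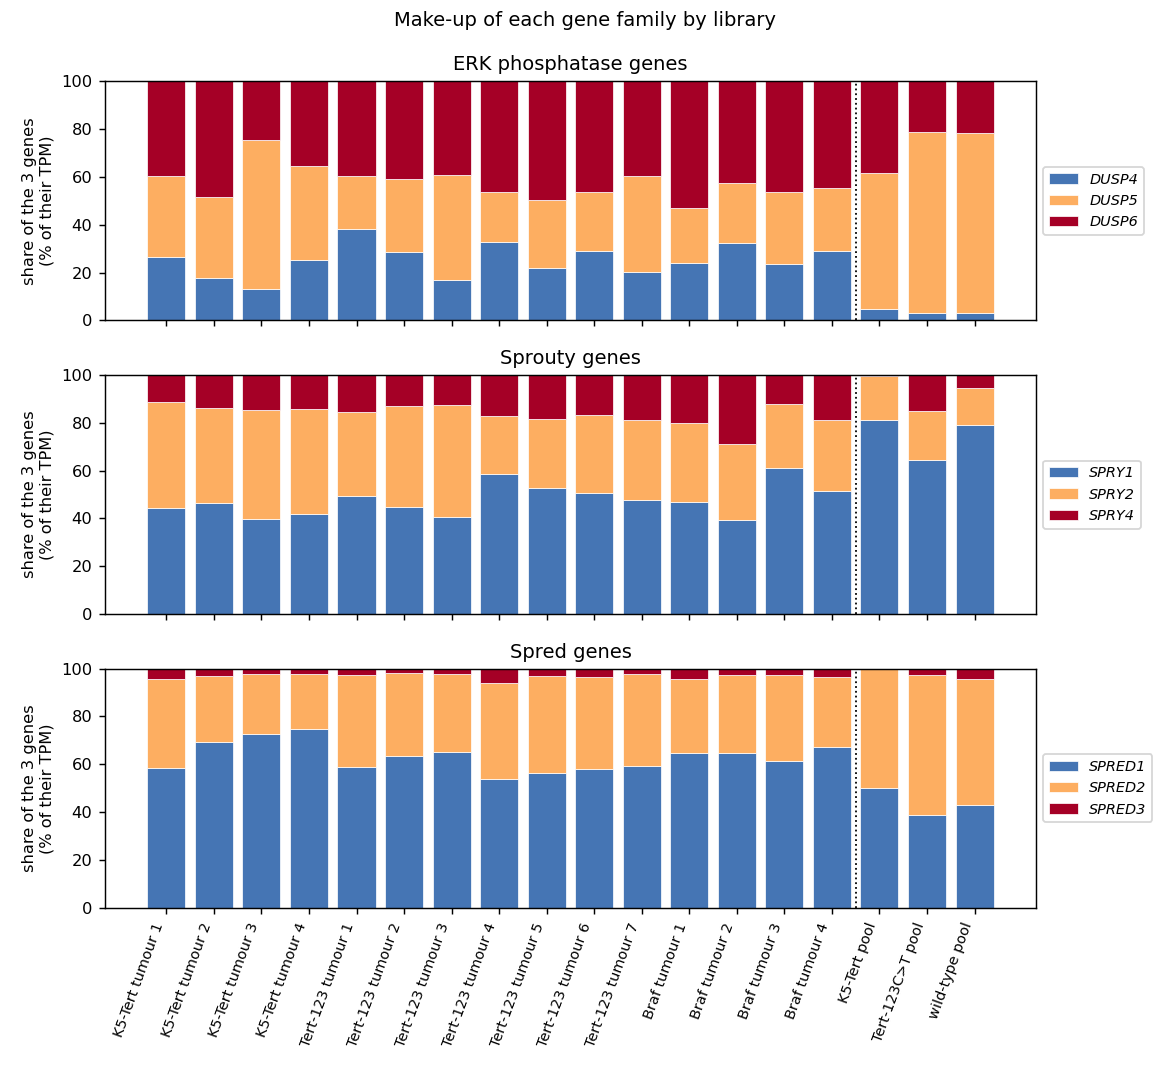
Share in percent of the summed TPM of each family held by each of its 3 genes, by library, with tumours left of the dotted line and pools right of it. DUSP4, SPRY2 and SPRED1 take larger shares in tumours than in pools, and SPRY1 and SPRED2 take smaller ones.

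Other genes of the pathway went both ways with the Braf mutation. Of the 16 tested ERK targets outside the 3 families, 9 were higher and 5 lower (limma, adjusted p under 0.05, against 15.4% and 10% of all genes). In 5 of the 16 every pool lay under 10 TPM, so they reached the filter through tumours alone, and 4 of these 5 were among the 9. Of the other 11, 5 were higher and 5 lower. ETV4, an ETS transcription factor, stood at 15.7 to 70.2 TPM in tumours and was listed at 0 in all 3 pools. CCND1, encoding cyclin D1, had 74.7 to 284 TPM in tumours and 8.09 to 13.5 TPM in pools, and the EGF receptor ligand EREG had 23.7 to 67.6 TPM in tumours and 0.94 to 1.5 TPM in pools. Among those that fell, the immediate-early gene EGR1 had 56.4 to 285 TPM in tumours and 691 to 1217 TPM in pools, and the AP-1 subunit gene FOSL1 had 6.61 to 36.0 TPM in tumours and 97.3 to 184 TPM in pools.

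The other MAP kinase phosphatases were not higher. Of 4 tested, 3 were lower and none higher: DUSP1, which acts on p38 and JNK as well as ERK, had 14.8 to 126 TPM in tumours and 213 to 386 TPM in pools (log2 fold change -2.79, adjusted p = 3.82e-06, limma), DUSP2 had 25.1 to 88.0 TPM in tumours and 147 to 455 TPM in pools (-2.29, adjusted p = 3.23e-05, limma), and DUSP16 fell by 0.93. The 12 tested further negative regulators of receptor and Ras signalling split, with 3 higher, 1 of them tested through tumours alone, and 4 lower. RASA2, a Ras GTPase-activating protein, was higher (1.84), and SOCS3 (-1.93) and the EGF receptor inhibitor ERRFI1 (-1.70) were lower. Of 8 binding partners of Sprouty and Spred, CAV1 alone passed and was lower (-0.94). Of 11 genes of the core cascade from Ras to ERK, MAPK3, which encodes ERK1 (0.68), and the ERK-activated kinase gene RPS6KA1 (0.69) were higher, by limma with adjusted p under 0.05. Over all genes 15.4% were called higher and 10% lower. The counts of 1 lower of 8 binding partners and 2 higher of 11 core genes are near these rates.

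In K5-Tert over Braf tumours, 1 of the 8 genes tested passed the threshold, and narrowly. None was higher and SPRED2, which brings neurofibromin to the membrane, was lower. It averaged 20.4 ± 13.9 TPM in K5-Tert tumours and 33.8 ± 5.63 TPM in Braf tumours (SD, n = 4 each), with a log2 fold change of -0.89 (SE 0.319, adjusted p = 0.0499, limma with Benjamini-Hochberg). K5-Tert tumour 1, with 40.6 TPM, lay above all 4 Braf tumours and the other 3 lay below them. In this comparison 21.9% of the 7498 genes tested were called lower and 0.587% higher (1641 and 44 genes, against 371 lower and 508 higher with TMM-type factors), and the median log2 fold change was -0.48 over all genes and -0.60 over the 8, so a lower value was the common case. The call of SPRED2 was lost in 23 of 26 alternative fits, among them all 4 other scalings, in which its log2 fold change was -0.76 to -0.31.

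SPRY4 was the 1 gene whose groups did not overlap: all 4 K5-Tert tumours, with 2.69 to 6.13 TPM, lay below all 4 Braf tumours, with 6.86 to 15.7 TPM. Among all genes tested, 16.2% showed such a separation downward, and SPRY4 did not pass the test (-0.98, adjusted p = 0.0632, limma). DUSP5 was the gene with a positive difference, of 0.48 as deposited (adjusted p = 0.408, limma with Benjamini-Hochberg) and of 0.65 to 1.06 under the 4 other scalings, past the threshold in none. The other differences were -0.59 for DUSP4, -0.53 for DUSP6, -0.77 for SPRY1, -0.086 for SPRY2 and -0.62 for SPRED1, with adjusted p from 0.0855 to 0.854 (limma). With TMM-type factors, which moved the median of all genes to 0.07, DUSP4 stood at -0.016, DUSP6 at 0.055, SPRED1 at -0.045 and SPRY2 at 0.46, so the direction of DUSP6 and SPRY2 turned with the scaling. SPRED3 averaged 2.18 ± 1.68 TPM in K5-Tert tumours and 3.36 ± 0.48 TPM in Braf tumours (SD, n = 4 each), a log2 difference of -0.58 (exact two-sided permutation test, p = 0.143 over 70 arrangements).

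The result rested on which K5-Tert tumours were counted. Without K5-Tert tumour 1, 6 of the 8 genes were called lower, and without any other single library 0 or 1 was. Without K5-Tert tumours 2 and 4, none was called and SPRED2 stood at -0.31 (adjusted p = 0.66, limma). Thyrocyte markers summed to 458 to 604 TPM in K5-Tert tumours and 466 to 1402 TPM in the other 11 tumours, and macrophage markers to 447 to 3411 TPM in K5-Tert tumours and 214 to 5176 TPM in the other 11. The 4 basal keratinocyte markers summed to 116 TPM in K5-Tert tumour 1, above every other tumour. In K5-Tert tumours 2, 3 and 4 they summed to 5.45, 7.87 and 4.15 TPM, below the 11.6 to 40.6 TPM of the other 11. Of the 2 tested against Braf tumours, TRP63 was lower in K5-Tert tumours (-1.08, adjusted p = 0.0495, limma), under 1 of 5 scalings. Of the 9 thyrocyte markers tested against Braf tumours, HHEX (-1.37), GLIS3 (-1.20), NKX2-1 (-1.31) and PAX8 (-1.27) were lower in K5-Tert tumours, each losing its call under at least 1 other scaling. Of the 4 pericyte and smooth muscle markers tested, TAGLN (1.73) and ACTA2 (1.76) were higher under all 5 scalings (limma, adjusted p under 0.05). The part of these markers in the differences was not tested.

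Against Tert-123 tumours, SPRED2 and SPRY1 were lower in K5-Tert tumours. SPRED2 averaged 20.4 ± 13.9 TPM in the 4 K5-Tert tumours and 35.0 ± 7.40 TPM in the 7 Tert-123 tumours (SD), a log2 fold change of -0.93 (SE 0.283, adjusted p = 0.0218, limma with Benjamini-Hochberg). SPRY1 averaged 15.7 ± 6.42 TPM in K5-Tert tumours and 27.4 ± 10.5 TPM in Tert-123 tumours (SD), a log2 fold change of -0.78 (SE 0.287, adjusted p = 0.0456, limma with Benjamini-Hochberg). Of all 7498 genes tested, 29.5% were called lower and 0.760% higher (2210 and 57 genes, against 373 lower and 698 higher with TMM-type factors), and the median was -0.48, against -0.43 over the 8 genes. Of 26 alternative fits, the call of SPRY1 was lost in 19 and that of SPRED2 in 8. Both were lost under all 4 other scalings, with no filter, and without K5-Tert tumour 2 or 4. Leaving out K5-Tert tumour 1 gave 4 genes lower, and an XIST covariate gave 3, SPRY4 being the third (adjusted p = 0.0499, limma). DUSP5 had the positive difference (0.36, adjusted p = 0.473, limma). Both comparisons of K5-Tert tumours share those 4 libraries, and setting Tert-123 against Braf tumours reuses the rest.

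**Figure D4:**
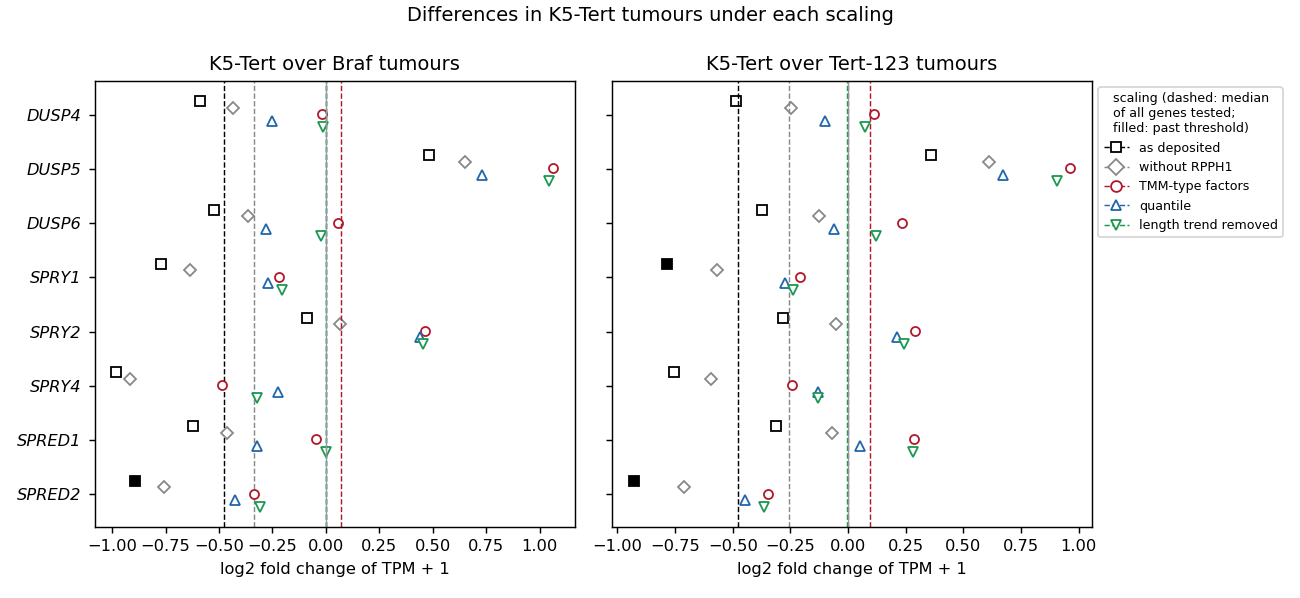
Log2 fold change of TPM + 1 of the 8 genes in K5-Tert tumours over Braf tumours (left) and over Tert-123 tumours (right) under 5 scalings, each with the median of all genes tested as a dashed line and filled where the adjusted p is under 0.05. Only the as-deposited values of SPRED2, and of SPRY1 on the right, are filled, and DUSP5 lies right of 0 under every scaling.

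The Tert-123C>T change in Braf tumours moved none of the group past the threshold. The log2 fold changes of Tert-123 over Braf tumours ran from -0.31 for SPRED1 to 0.20 for SPRY2, with 95% intervals that reached at most -0.92 (SPRY4) and 0.93 (DUSP5), and the smallest adjusted p over all genes was 0.9997 (limma with Benjamini-Hochberg). Of all 7498 genes, 0 (0%) were called and 50 had an unadjusted p under 0.05, none of them among the 8. SPRED3 averaged 2.67 ± 0.72 TPM in the 7 Tert-123 tumours and 3.36 ± 0.48 TPM in the 4 Braf tumours (SD), a log2 difference of -0.26 (exact two-sided permutation test, p = 0.13 over 330 arrangements). As deposited, Tert-123 tumour 7 had the highest DUSP6, SPRY1, SPRY2 and SPRY4 of all 15 tumours, and the lowest share of RPPH1 (43.7%). With TMM-type factors it kept the highest SPRY1, SPRY2 and SPRY4, while DUSP6 was highest in K5-Tert tumour 2 (log2 level 6.92, against 6.87).

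Of the other pathway genes, DUSP1, IER3 and SOCS3 were higher in K5-Tert tumours than in Braf tumours under every scaling. Against Braf tumours, DUSP1 had 45.3 to 126 TPM in K5-Tert tumours and 14.8 to 42.5 TPM in Braf tumours (1.51, adjusted p = 0.0168, limma), the early response gene IER3 had 30.2 to 71.9 TPM in K5-Tert tumours and 16.3 to 27.5 TPM in Braf tumours (0.85, adjusted p = 0.0343, limma), and SOCS3, an inhibitor of cytokine receptors, had 58.9 to 124 TPM in K5-Tert tumours and 30.4 to 64.1 TPM in Braf tumours (0.79, adjusted p = 0.0479, limma). All 3 passed under all 5 scalings. Whether these calls, or those against Tert-123 tumours below, hold without single K5-Tert tumours was not examined. Over all genes, 44 were called higher than in Braf tumours. The number was 78 without K5-Tert tumour 1, 20 without K5-Tert tumour 2 and 5 without K5-Tert tumours 2 and 4. ETV1, ETV4, ETV5 and EPHA4 were lower among the 16 ERK targets, and NF1, RASA1, RASA2 and DAB2IP, which all encode Ras GTPase-activating proteins, among the 12 further negative regulators. Over all genes 21.9% were called lower, so the count of 4 of the 16 ERK targets is near the common rate, and each of these 8 lost its call under at least 1 other scaling. NF1, the partner through which Spred proteins act on Ras, had 7.97 to 30.3 TPM in K5-Tert tumours and 20.5 to 38.1 TPM in Braf tumours (-1.25, adjusted p = 0.0197, limma). NF1 was also the 1 lower gene of the 8 binding partners, and ARAF the 1 lower gene of the 11 core genes. Against Tert-123 tumours, DUSP1, IER3 and, downward, ETV4 (-1.16, adjusted p = 0.00403, limma) passed under all 5 scalings. With Tert-123C>T alone, 0 genes of the 5 lists passed. The 4 other MAP kinase phosphatases had no lower gene in any of the 3 comparisons between tumours.

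Within the genotype groups, the genes fell into loose neighbourhoods. After TMM-type rescaling and removal of each group's mean, Pearson's r over the 15 tumours was 0.84 for DUSP6 with SPRY1, 0.73 for DUSP6 with SPRY2 and 0.74 for DUSP5 with SPRY2, while SPRED1 and SPRED2 went together (0.72). SPRED1 had r of -0.19 with SPRY1 and -0.032 with SPRY4, and DUSP4 had r of 0.42 or less with every other member. Over the 7498 genes, the most alike were RAB13 for DUSP6 (0.90), SLC34A2 for SPRY1 (0.89), MIA2 for SPRY2 (0.93), SLU7 for SPRED1 (0.96), DSP for SPRED2 (0.97), SPTY2D1 for DUSP5 (0.88), NUP62 for DUSP4 (0.87) and KCTD5 for SPRY4 (0.75). The points share their library and its scaling, Tert-123 tumour 7 was high in several of the genes, and these values describe the 15 tumours with no test.

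**Figure D5:**
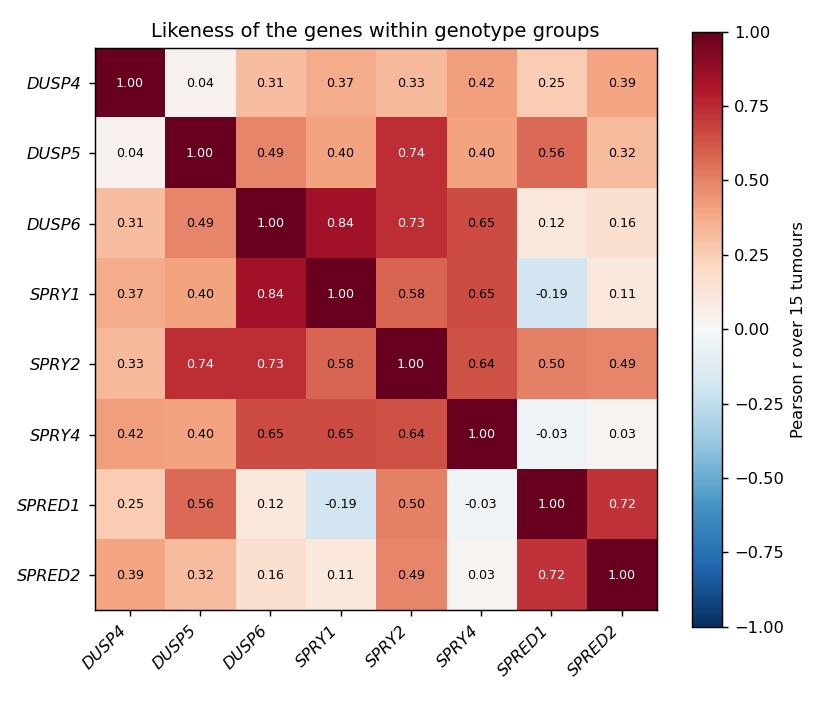
Pearson's r between the 8 genes that passed the filter, over 15 tumours after TMM-type rescaling and with the mean of each genotype group taken off. DUSP6 and the Sprouty genes form a block of 0.58 to 0.84, and SPRED1 with SPRED2 forms another.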

How the data were processed

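Messenger RNA of 9000 to 20000 YFP-sorted thyroid cells per library was sequenced by a low-input protocol with 14 cycles of PCR and paired reads of 100 bp, per the labels' design text. The authors deposited 1 table of normalized values for 18 libraries. They were treated as TPM because each deposited column sums to 1000000. Values not divided by transcript length can share that total, so the unit is an assumption. The order of the genes and the shares within families rest on it. Which aligner, annotation and build were used is not given in the sources used here, no counts were used, and the depth is unknown, so no counting interval is given. The 26 entries whose names had become dates (at most 0.0455% of a library) were left out. RPPH1, a noncoding RNA, held 43.7% to 68.8% of a library's TPM.

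Groups came from the genotype labels, and libraries are numbered in the order of the series. The fits (R 4.3.3, limma 3.58.1, prior variance following the mean level) took log2(TPM + 1) for genes at 10 TPM or more in at least 4 of the libraries fitted. A fold change on this scale understates the change of low genes. One fit held the 3 tumour groups and left 12 residual degrees of freedom. Another held all 18 libraries, with terms for the Braf mutation and the Tert allele, and left 14. All tests were two-sided, with Benjamini-Hochberg adjustment over all genes tested and a threshold of 0.05. SPRED3, under the filter, was compared by exact permutation tests. The differences between alleles came from a limma fit of the 6 genotype groups. The fits were tested on simulated data, but the outcome is not given here, so nothing is read from that test.

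The other scalings were TMM-type factors (trimming 30% by ratio and 5% by level), quantile normalization, TPM without RPPH1, and removal of each library's mean and trend with transcript length. Further alternatives were pseudocounts of 0.5 and 5, no filter, a filter at 1 TPM, only the groups compared, XIST as a covariate, and each library left out. Leaving out K5-Tert tumours 2 and 4, all Tert-123 libraries or all K5-Tert libraries was added after seeing the data. The 9 genes, the pathway lists and the marker lists were chosen with earlier results of these data known. The text names all 9 genes, up to 4 members past the threshold in each direction of each of the 5 pathway lists, and for each tested gene the most alike others of 7498. One result that this rule names is not reported here. Promoter windows and their build are those of RefSeq.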

Additional observations from a re-analysis of the deposited data

How the results depend on the processing

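No paired analysis was possible because the labels give no replicate numbers and the 3 pools are single libraries. Of the genes of this group, DUSP4 and SPRED1 passed in all 31 alternatives of the Braf comparison. In K5-Tert over Braf tumours, 0 of the 8 genes were lower with a pseudocount of 5, no filter, a filter at 1 TPM, each of the 4 other scalings, only the groups compared, the XIST covariate, or without K5-Tert tumours 2 and 4, and over the fits that left out 1 library the number was 0 to 6. Genes called there were 879 with TMM-type factors, 665 with quantile normalization, 940 without the length trend, 500 with only the groups compared, 237 with XIST and 21 without K5-Tert tumours 2 and 4, and 421 to 3598 leaving out 1 library. In K5-Tert over Tert-123 tumours, 3 genes were lower with the XIST covariate, 1 with a pseudocount of 5, a filter at 1 TPM or only the groups compared, 0 with no filter, the 4 other scalings or without K5-Tert tumours 2 and 4, and 0 to 4 leaving out 1 library. Genes called there were 1071, 687, 1503 and 1008 (TMM-type, quantile, without RPPH1, length), 1219 with only the groups compared and 28 without K5-Tert tumours 2 and 4, and 573 to 4028 leaving out 1 library. In Tert-123 over Braf tumours 1 gene was called with no filter.

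With the Braf mutation, 2 to 6 of the genes were higher leaving out 1 library (2 without the wild-type pool), and 1 was lower without the length trend. Genes called were 3211 with no filter, 3597 with a filter at 1 TPM, 3107 with TMM-type factors, 3245 without the length trend, 1319 without all Tert-123 libraries, 3074 without all K5-Tert libraries and 1438 to 2295 leaving out 1 library.

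Directions turned for differences near 0. In K5-Tert over Braf tumours, DUSP6 was 0.055 with TMM-type factors, SPRY2 was 0.46 (TMM-type), 0.44 (quantile), 0.068 (without RPPH1), 0.45 (length) and 0.40 (without K5-Tert tumours 2 and 4), and SPRED1 was 0.0020 (length). Leaving out 1 library, SPRY2 ran from -0.30 to 0.17. In Tert-123 over Braf tumours, SPRY1 was -0.011 (TMM-type), -0.069 (without RPPH1) and -0.20 (XIST), and SPRED2 was -0.046 (without RPPH1) and -0.0020 (XIST). Leaving out 1 library there, DUSP4 ran from -0.29 to 0.035, DUSP5 from -0.089 to 0.28, SPRY1 from -0.14 to 0.15 and SPRED2 from -0.063 to 0.12. In K5-Tert over Tert-123 tumours, TMM-type factors gave 0.11 for DUSP4, 0.23 for DUSP6, 0.29 for SPRY2, 0.29 for SPRED1 and 0.082 for SPRED3. Quantile normalization gave 0.21 for SPRY2 and 0.052 for SPRED1, and the length correction gave 0.072 for DUSP4, 0.12 for DUSP6, 0.24 for SPRY2 and 0.28 for SPRED1. Leaving out K5-Tert tumours 2 and 4 gave 0.20 for SPRY2, 0.083 for SPRED1 and 0.11 for SPRED3, and DUSP5 ran from -0.017 (without K5-Tert tumour 3) to 0.58 leaving out 1 library. With the Braf mutation, DUSP5 was 0.14 without the Tert-123C>T pool or without all Tert-123 libraries, and ran from -0.87 to 0.14 leaving out 1 library. SPRED3 ran from -0.90 to -0.38 leaving out 1 library in K5-Tert over Braf tumours (p = 0.0286 without K5-Tert tumour 1), from -0.33 to -0.18 in Tert-123 over Braf tumours (p = 0.0476 without Tert-123 tumour 4) and from -0.63 to -0.12 in K5-Tert over Tert-123 tumours (p = 0.0167 without K5-Tert tumour 1), in exact permutation tests. The causes of these shifts were not tested. The depth is unknown, so what it limits cannot be stated.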
